A study of Gallus gallus with 4 samples.

Results

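Pyrimidines are the single-ring bases of RNA and DNA, and cells both build them and take them apart. Synthesis starts from glutamine, bicarbonate and aspartate. It runs through CAD, DHODH and UMPS to the nucleotide UMP, and TYMS then makes the thymidylate that only DNA needs. Breakdown of uracil and thymine runs through DPYD, DPYS and UPB1 to beta-alanine and beta-aminoisobutyrate, a route best known from the liver and kidney of mammals. The data described here are the 7 enzymes of these routes, taken as every chicken probe set that the platform annotation names DPYS, DPYD, UPB1, CAD, UMPS, DHODH or TYMS. These were 13 probe sets for all 7 genes, out of 37695 chicken probe sets and 13009 named genes. The set was chosen by pathway after the difference in DPYS intensity between HoxA13 and control had passed a test in these same arrays. The values of all 7 enzymes in this comparison are therefore a description and not independent evidence for any change.

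The series holds 4 Affymetrix arrays of total RNA from the streak region of chicken embryos that contains the precursors of the presomitic mesoderm, the tissue that forms the somites. Embryos were electroporated at Hamburger and Hamilton stage 5, after 24 h of incubation at 38 °C, and cultured on albumin and agar for 14 h at 38 °C until they had 9 somites. In the HoxA13 group the vector carried the posterior Hox gene HoxA13 under the CAGGS promoter, a broadly active promoter, with an H2B-Venus reporter. The control group received the H2B-Venus reporter alone. Each group had 2 arrays, each of them a pool of 7 embryos, named biological replicates in the labels. The comparison asks what differs in the precursors when HoxA13 is supplied early. In bulk RNA such as this, fewer cells of a type and less RNA per cell cannot be told apart.

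The values are the deposited linear intensities. A probe set was called above background on an array when it exceeded 99% of the viral probe sets on that array, a level that lay between 12.8 and 16.5. By this measure each array detected 37.8% to 42.7% of its chicken probe sets. Of the streak and tail bud markers, TBXT lay between 5508 and 6483 and MSGN1 between 1244 and 2040 on the 4 arrays. TBX6, of the same list, was below background on every array. The single HOXA13 probe set stayed near background on all arrays, at 8.09 to 24.7, and it is not known here whether the vector contains its target, so it does not check the labels. The brightest reporter probe set did differ by group, with 7038 and 7458 in HoxA13 against 1293 and 1454, although both vectors carry a reporter. The arrays also divide by replicate number. The spike-ins added before hybridisation had 27 probe sets, several of them for the same spike-in. For 27 of 27 the signal of each replicate 2 array exceeded that of each replicate 1 array (median log2 gap 0.75). Differences within each replicate number are therefore given beside the pooled ones.

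Across all chicken probe sets, limma on log2 intensity (the plain fit) passed 0 probe sets higher (0%) and 0 lower (0%) in HoxA13 at an adjusted p of 0.05. At an unadjusted p under 0.05 it had 1000 higher and 1228 lower. A second fit, the offset fit, used log2(intensity + 16) and the 15818 probe sets above background on at least 2 arrays. It passed 3 higher (0.0190%) and 10 lower (0.0632%), and at an unadjusted p under 0.05 it had 382 higher and 431 lower of the 15818. The unadjusted counts over all probe sets are the background for each unadjusted count further on. Of the 13 probe sets of the enzymes, 0 passed the plain fit. At an unadjusted p under 0.05 there was 1 lower, DPYS, and 1 higher, a CAD probe set below background on every array. In the offset fit 8 of the 13 were tested, of which 0 passed as higher and 1, DPYS, as lower. At an unadjusted p under 0.05 there were 2 higher and 1 lower. Since the enzymes were picked with this contrast known, nothing is read from these counts.

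By the brightest probe set of each gene, 6 of the 7 were above background on at least 2 arrays. The groups did not overlap for 3 enzymes: DPYS was lower and CAD and DHODH were higher in HoxA13. Of all probe sets above background, 18.3% had HoxA13 values above both controls and 14.7% had them below both, and these shares are the background for each count without overlap in the lists further on. The other 4 enzymes, TYMS, UMPS, UPB1 and DPYD, had overlapping groups. The same 3 enzymes were apart, in the same directions, after quantile normalization and after centring each array on its median.

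**Figure D1:**
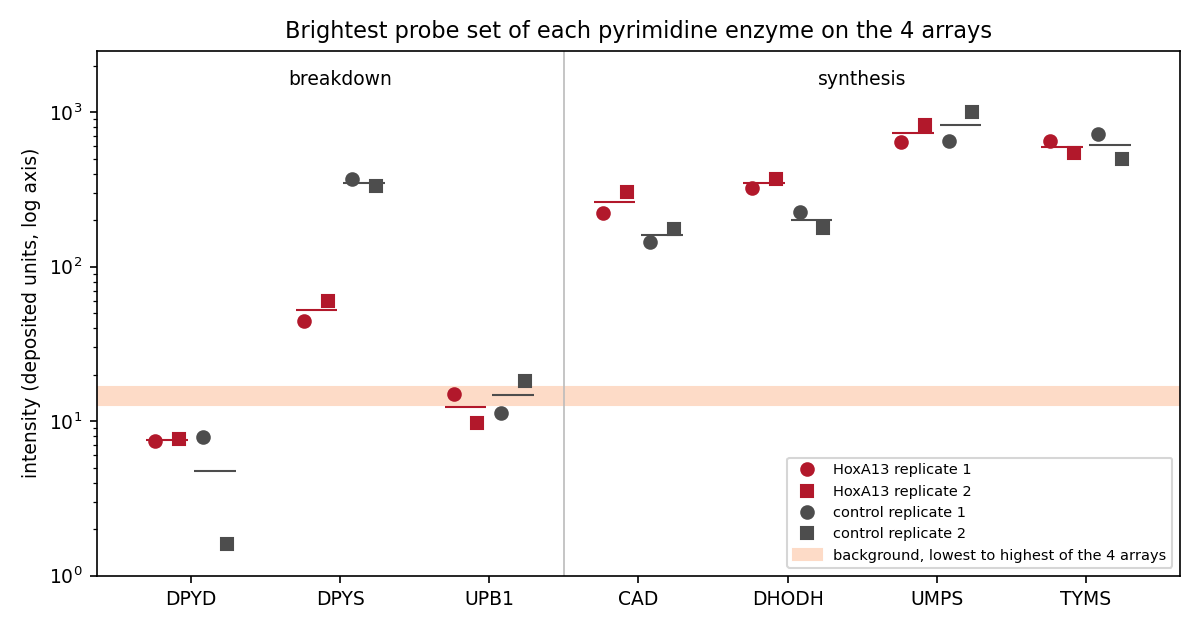
Intensity of the brightest probe set of each enzyme on each of the 4 arrays (log axis), with HoxA13 in red, control in grey, circles for replicate 1, squares for replicate 2, horizontal bars at the group means and a shaded band over the range of the array backgrounds. DPYS lies at 44.3 and 60.0 in HoxA13 against 368 and 333 in the controls, CAD and DHODH lie higher in HoxA13, and DPYD lies below the band on every array.

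DPYS, dihydropyrimidinase, opens the ring of the reduced base in the middle step of breakdown. Its single probe set gave 44.3 on HoxA13 replicate 1 and 60.0 on HoxA13 replicate 2, against 368 and 333 on the 2 control arrays. Both HoxA13 arrays were far below both controls, yet above background, so the transcript was still measured there. The group means were 52.2 ± 11.1 and 351 ± 25.1 (SD, n = 2 each), a difference of -2.76 ± 0.43 on the log2 scale (SE, plain fit), or 6.79-fold lower. Within replicate number 1 the log2 difference was -3.05 and within number 2 it was -2.47. On the log2(intensity + 16) scale the difference was -2.44 ± 0.28, the 10th lowest of the 15818 probe sets above background. In limma the adjusted p was 0.62 in the plain fit and 0.031 in the offset fit, which on simulated data passed more unchanged probe sets than its threshold allows. Without HoxA13 replicate 1 or 2 the offset fit no longer passed DPYS (log2 difference -2.27 with adjusted p = 0.104, and -2.60 with adjusted p = 0.0555), and over all 15 alternatives to the plain fit, offset scales included, the difference stayed between -2.98 and -2.19.

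Single markers of neighbouring tissues, among them HHEX, PRRX1 and FLT1, were lower in HoxA13 beside DPYS, while most of their lists was below background. The endoderm list without HHEX had overlapping sums, and the neural plate and streak lists summed higher in HoxA13. The part of these markers in the DPYS difference was not tested. The 9 measured endoderm markers summed to 168 and 113 in HoxA13 and to 461 and 508 in the controls. HHEX, an early endoderm and endothelial gene, made up most of the control sums, at 336 and 419, and was 44.2 and 9.39 in HoxA13. The other 8 summed to 124 and 103 against 125 and 88.6, and SOX17, CER1 and AFP were below background on every array. Of the 4 endoderm genes above background on at least 2 arrays, 2 were lower and 0 higher without overlap. The 10 lateral and intermediate mesoderm markers summed to 61.2 and 69.6 against 165 and 203. Of these, 1 was above background on at least 2 arrays, PRRX1, and 7 were below background everywhere, among them HAND1, FOXF1 and GATA4. Without PRRX1 the other 9 summed to 44.6 and 39.7 against 56.3 and 90.2. As 0 of these 9 were above background on at least 2 arrays, these sums give no level. The 10 blood and endothelial markers summed to 86.0 and 45.8 against 282 and 240. FLT1, a VEGF receptor gene, carried most of the control sums, and without it the other 9 summed to 52.4 and 44.8 against 70.1 and 86.9. The endothelial genes KDR, TEK and CDH5 were below background on every array. Of the 3 blood and endothelial genes above background on at least 2 arrays, 2 were lower and 0 higher without overlap. The surface ectoderm list, led by EPCAM, summed to 2026 and 1168 against 2925 and 2132. It had 3 of 6 genes above background, 1 of them lower and 0 higher without overlap. The neural plate list, led by CDH2, summed to 2612 and 2270 against 1632 and 1237. It had 4 of 7 genes above background on at least 2 arrays, 2 of them higher and 0 lower without overlap. NEUROG2, OTX2 and SOX1 were below background everywhere. Neither list was summed without its leading gene. The streak and tail bud list was higher in HoxA13, at 15466 and 15681 against 13607 and 11937, and 6 of its 10 genes above background were higher without overlap and 1 lower. In limma 1 endoderm marker passed the offset fit as lower, and no marker of the other lists passed either fit. At an unadjusted p under 0.05 the offset fit had 4 streak and 2 neural plate markers higher, and 1 lower in each of the remaining lists.

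The enzymes on either side of DPYS in the pathway were dim. DPYD, which reduces uracil and thymine in the first and rate-limiting step, gave 7.46 and 7.70 in HoxA13 and 7.85 and 1.61 in the controls. Every one of these was below background, so no level or fold can be given. UPB1, beta-ureidopropionase, releases the end products. It gave 15.0 and 9.80 against 11.3 and 18.2, above background on 1 array of each group, with a log2 difference of -0.24 ± 0.52 (SE, plain fit). Its groups overlapped and replicate numbers 1 and 2 differed in sign, at 0.41 and -0.89. DPYS was thus the one breakdown enzyme that was above background on all 4 arrays.

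On the synthesis side all 4 enzymes were above background on every array. CAD joins the opening activities of the pathway in a single protein, namely carbamoyl phosphate synthetase, aspartate transcarbamylase and dihydroorotase. Its brightest probe set gave 223 and 304 in HoxA13 and 145 and 175 in the controls. The means were 264 ± 57.2 and 160 ± 21.2 (SD, n = 2), 1.64-fold higher in HoxA13, with a log2 difference of 0.71 ± 0.44 (SE). The 95% interval, from -0.53 to 1.95, includes 0. The difference was of similar size within both replicate numbers, at 0.62 and 0.80. The other 3 CAD probe sets were below background on all arrays, at 9.47 or less, and went both ways, with log2 differences of -0.12, -0.53 and 1.47. They carry no reading of the gene's level.

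DHODH, the enzyme of the inner mitochondrial membrane that oxidises dihydroorotate to orotate, was represented by 3 probe sets. The brightest gave 321 and 371 in HoxA13 and 225 and 179 in the controls. Its means were 346 ± 34.9 and 202 ± 32.9 (SD, n = 2), 1.72-fold higher, with a log2 difference of 0.78 ± 0.43 (SE) and a 95% interval from -0.41 to 1.97. Within replicate numbers 1 and 2 it was 0.51 and 1.05. A second probe set, dimmer but above background on every array, gave 38.6 and 41.3 against 28.1 and 22.7, a log2 difference of 0.66 ± 0.42. Both readings of DHODH therefore had HoxA13 above control without overlap and differed by close to the same amount. Each carries a suffix that Affymetrix gives to probe sets whose probes can match more than 1 transcript, and whether another transcript adds to them was not tested. The same suffix, with the same limit, is on the brightest UMPS probe set and on the DPYD probe set. The third DHODH probe set was below background on all arrays.

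UMPS, which turns orotate into UMP in its closing 2 steps, gave 642 and 830 in HoxA13 and 652 and 1007 in the controls. The groups overlapped, with a log2 difference of -0.15 ± 0.48 (SE) and a 95% interval from -1.49 to 1.19. In both groups the replicate 2 array was the brighter one, by 0.37 on the log2 scale in HoxA13 and 0.63 in control. The spread between replicate numbers was thus larger than the difference between the groups. A second UMPS probe set was near background, with 22.8 and 2.26 against 15.6 and 9.97.

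TYMS, thymidylate synthase, is the step that methylates dUMP and is known for its high expression in dividing cells. Its probe set gave 651 and 547 in HoxA13 and 721 and 500 in the controls. The means were 599 ± 73.5 and 610 ± 156 (SD, n = 2) and the log2 difference was -0.01 ± 0.45, with a 95% interval from -1.27 to 1.25. Here the replicate 1 array was the brighter one in both groups. The interval is wide and includes differences of the size measured for CAD and DHODH.

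**Figure D2:**
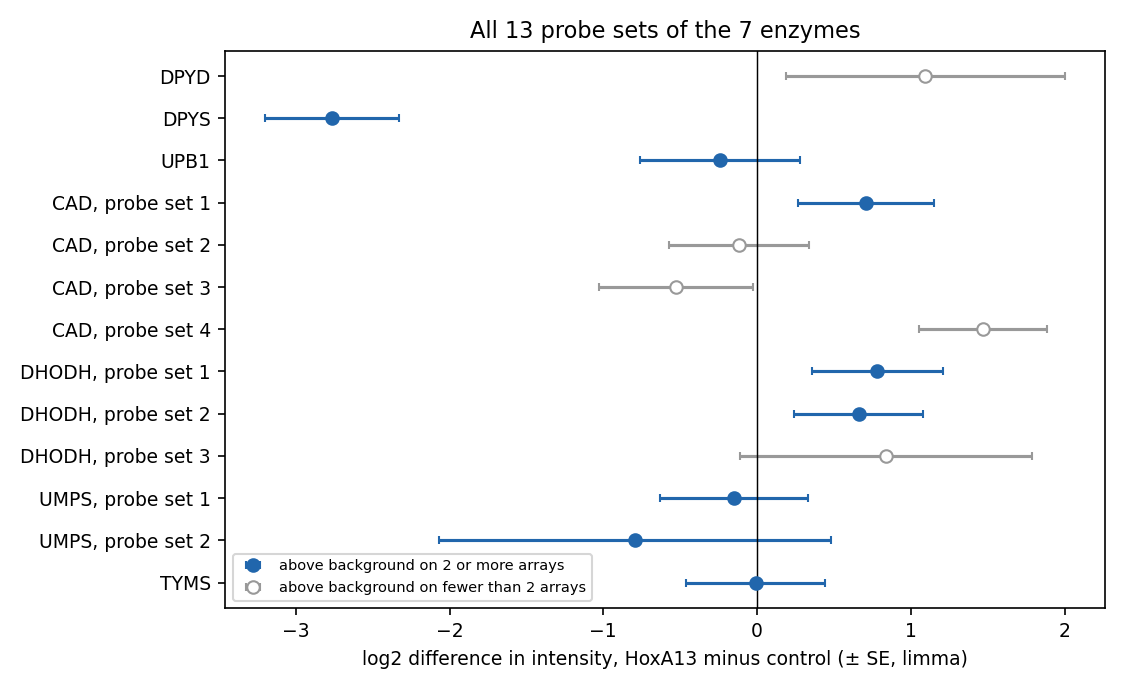
Log2 difference in intensity (HoxA13 minus control, plain fit) for each of the 13 probe sets, with bars of 1 SE; probe sets of a gene are numbered from brightest to dimmest in the controls, and open grey points were above background on fewer than 2 arrays. DPYS stands at -2.76, CAD probe set 1 and DHODH probe sets 1 and 2 lie between 0.66 and 0.78, and UMPS probe set 1 and TYMS lie near 0.

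The rest of nucleotide metabolism was described from lists of related enzymes. Leaving out the 7 enzymes, 65 further genes were measured and 55 were above background on at least 2 arrays. In limma 0 of the 65 passed the plain fit and 0 of the 55 the offset fit, with 2 in each at an unadjusted p under 0.05. The 2 of the plain fit were below background on every array. Their groups did not overlap for 11 that were higher and 6 that were lower in HoxA13, and overlapped for 38. The median log2(intensity + 16) difference was 0.12, against 0.03 for all probe sets above background. Of the 55, PRPS2 and UPP2 were above background in the controls alone, so that their place among the lower genes is set by the filter. Without them 11 were higher and 4 lower of 53. The plain log2 differences of these 53 ran from -0.78 for UCKL1 to 0.92 for ADSS1. UCKL1 lay near background, at 3.25 and 17.2 in HoxA13 against 7.01 and 23.7, and the SE of its difference was 1.13.

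Pyrimidine salvage and interconversion, the reuse of bases and nucleosides, had 18 of 21 measured genes above background. Of these, 2 were higher and 2 lower without overlap, 0 passed either fit (limma, 0 at an unadjusted p under 0.05 in either), and the median difference was 0.12 on the log2(intensity + 16) scale. The uridine phosphorylases, which split uridine into uracil and ribose phosphate, were dim. UPP1 was 27.2 and 18.7 in HoxA13 against 20.6 and 8.96, with overlapping groups. UPP2 was 12.2 and 14.4, below background, against 18.7 and 30.5 in the controls, at least 1.66-fold lower. It is 1 of the 2 lower genes and passed the filter through the controls alone. This bound sets the mean of the brighter group against the array backgrounds of the dimmer one. CTPS2, which makes CTP from UTP, was 97.8 and 69.9 against 175 and 78.4, and its groups overlapped.

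The folate cycle and deoxynucleotide list, which feeds DNA synthesis, had 9 of 11 genes above background, TYMS included, and a median difference of 0.02. Without overlap 2 were higher and 0 lower, and 0 passed either fit (limma, 0 at an unadjusted p under 0.05 in either). RRM2B, a small subunit of ribonucleotide reductase, was 43.4 and 49.1 against 41.5 and 27.9. The large subunit RRM1 was 321 and 238 against 281 and 179, with overlap and a plain log2 difference of 0.30. Its second, dimmer probe set also overlapped and went the other way, at -0.12. MTHFD1L, a mitochondrial folate enzyme, lay near background, with 5.41 and 21.0 against 25.6 and 12.5. As for TYMS itself, the gaps between arrays of a group were as large as those between the groups for RRM1 and MTHFD1L.

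Enzymes that use beta-alanine or beta-aminoisobutyrate, the products of the DPYS route, or that neighbour them in valine breakdown, had 6 of 7 genes above background. Of these 0 were higher and 2 lower without overlap, the median difference was -0.15, and 0 passed either fit (limma). At an unadjusted p under 0.05 there was 1 higher in the plain fit, CNDP1, which was below background on every array, and 0 in the offset fit. AGXT2, which transfers the amino group of beta-aminoisobutyrate, was 155 and 127 in HoxA13 against 223 and 181, a log2 difference of -0.52 ± 0.43 (SE, plain fit). ABAT, the transaminase of GABA and beta-alanine, was 115 and 114 against 136 and 141, a log2 difference of -0.27 ± 0.40, while a dimmer ABAT probe set overlapped. HIBADH, of valine breakdown, was 549 and 745 against 702 and 958. Both AGXT2 and ABAT were lower on both HoxA13 arrays, but by far less than DPYS.

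DPYS belongs to a family of amidohydrolases that includes the dihydroorotase part of CAD and the collapsin response mediator proteins, relatives that act on the cytoskeleton of growing axons. The list used here is wider than this family and also holds ATIC, of purine synthesis, whose groups overlapped. It had 8 of 8 measured genes above background, CAD included. Of these 5 were higher without overlap and 0 were lower (18.3% and 14.7% of all probe sets above background), the median difference was 0.27, and 0 passed either fit (limma). At an unadjusted p under 0.05 there were 0 in the plain fit and 1, CAD, in the offset fit. DPYSL4 was 187 and 336 in HoxA13 against 171 and 165, a difference carried by replicate 2, and its dimmer probe set overlapped. AMDHD2, an amidohydrolase of amino sugar metabolism, was 389 and 486 against 337 and 335, whereas its second bright probe set overlapped, with 187 and 271 against 184 and 275.

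Purine synthesis had 13 of 13 measured genes above background, 3 higher and 2 lower without overlap, and a median difference of 0.08. In limma 0 passed either fit. At an unadjusted p under 0.05 there were 0 in the plain fit and 1 in each direction in the offset fit. ADSS1, an adenylosuccinate synthase, was 205 and 224 in HoxA13 against 150 and 85.7, 1.89-fold higher with a log2 difference of 0.92 ± 0.50 (SE). ADSL, the lyase that follows it, was 1616 and 1739 against 1417 and 1113. PRPS2, which makes the activated ribose for both purines and pyrimidines, was 8.14 and 1.41, below background, against 15.2 and 25.4, at least 1.37-fold lower. It is 1 of the 2 lower genes and the lower one of the offset fit at an unadjusted p, and it passed the filter through the controls alone, with a plain log2 difference of -2.54 ± 1.02 (SE). Another PRPS2 probe set overlapped, at 10.9 and 0.29 against 4.15 and 19.0, above background on 1 array. A further PRPS2 probe set was below background on every array. Purine breakdown had only 4 of 8 genes above background, all with overlapping groups and a median of -0.02, and 0 passed either fit (limma). At an unadjusted p under 0.05 there was 1 higher in the plain fit and 0 in the offset fit. That gene was 1 of AMPD1, AMPD3, GDA and XDH, which were below background on every array. URAH, of the urate route, was 61.5 and 69.5 against 67.2 and 101. ADA, adenosine deaminase, was 37.9 and 58.0 against 46.8 and 66.3, and its relative ADAL was 62.5 and 43.0 against 48.4 and 36.9.

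**Figure D3:**
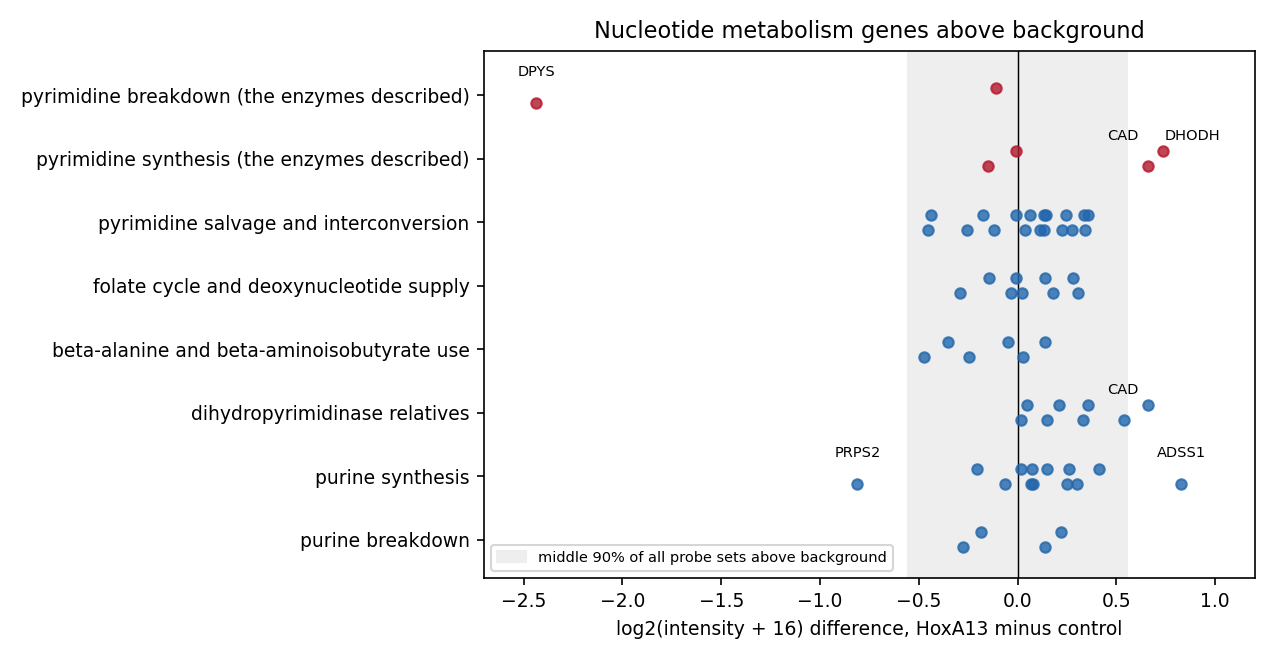
Difference in log2(intensity + 16), HoxA13 minus control, for genes above background on at least 2 arrays, by list; red points are the enzymes described, blue points the other lists, and the grey band holds the middle 90% of all such probe sets, from -0.56 to 0.55. DPYS lies far to the left at -2.44, CAD and DHODH lie just right of the band, and most other genes lie inside it.

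DPYS was also set beside the genes next to it in the RefSeq order of the GRCg7b assembly, 3 measured protein-coding genes on each side. RIMS2, a synaptic vesicle gene, was 13.0 and 22.8 in HoxA13 against 35.6 and 47.1, a log2 difference of -1.25 ± 0.51 (SE, plain fit). DCSTAMP, LRP12 and ZFPM2 were below background on every array. DCAF13, with 624 and 620 against 571 and 472, and OXR1, with 73.3 and 104 against 90.3 and 61.2, were expressed and not lower. Of the 3 neighbours above background on at least 2 arrays, RIMS2 was thus the one that was lower in HoxA13. Its value on HoxA13 replicate 1 lay below that array's background of 14.3. Its difference is therefore no measured fold to set beside that of DPYS.

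The genes whose pattern was closest to DPYS were found by the root mean square distance of their centred log2(intensity + 16) values over the 4 arrays, among 12439 named probe sets above background. The nearest was FZD6, a frizzled receptor gene, at 1 of its probe sets (distance 0.12), followed by the heat shock gene HSPA2 (0.16), the galectin gene LGALS3 (0.24), the contactin gene CNTN4 (0.28) and the synaptic vesicle gene SYP (0.28). HSPA2, at 52.4 and 101 against 526 and 466, and CNTN4, at 55.0 and 59.7 against 277 and 242, stayed above background in HoxA13 as DPYS did. CNTN4, a neural cell adhesion molecule, had a log2 difference of -2.18 ± 0.41 (SE, plain fit). FZD6, LGALS3 and SYP were below background in HoxA13, with 10.1 or less on these arrays. They entered through the controls alone, and the offset limits how far their HoxA13 values can lie, so their distances are no measured likeness. An alternative chosen after seeing the data took plain log2 values and the 9606 named probe sets above background on all 4 arrays. There the nearest were HSPA2 (0.18), the lateral mesoderm gene PRRX1 (0.27), CNTN4 (0.31), the matrix gene POSTN (0.36) and MTUS1 (0.43). The likeness rests on 4 arrays, and any probe set much lower in HoxA13 with close replicates scores as near.

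**Figure D4:**
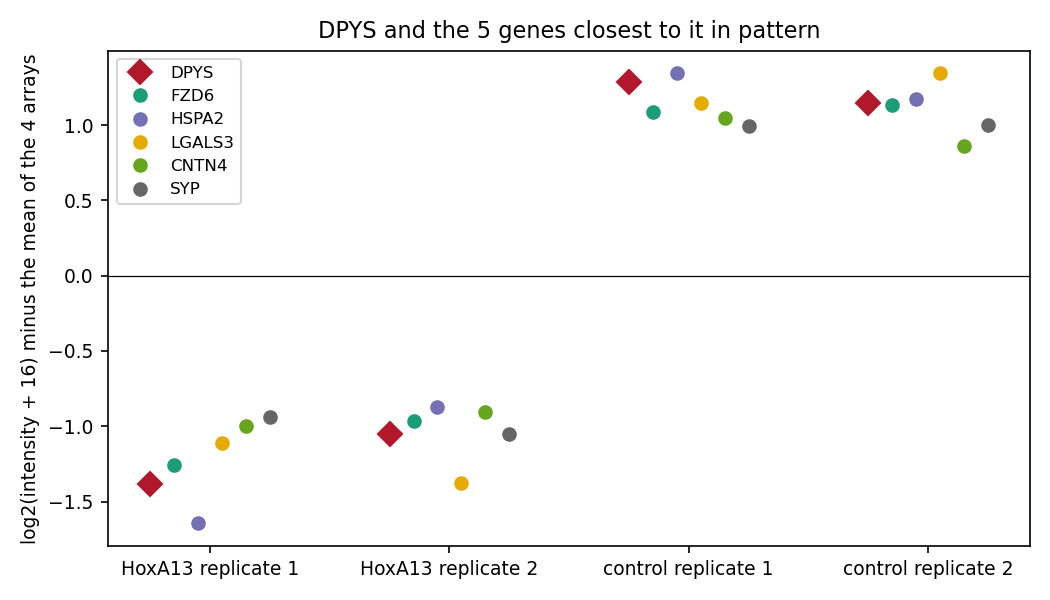
Centred log2(intensity + 16) of DPYS (red diamonds) and of the 5 genes closest to it in pattern (circles) on each of the 4 arrays; 0 is a gene's own mean. All 6 genes lie below 0 on both HoxA13 arrays and above 0 on both control arrays.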

How the data were processed

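Affymetrix arrays of 4 pools of chicken embryos were analysed, 2 of HoxA13 and 2 of control. The authors deposited a linear intensity for each probe set. Per the labels' protocols the RNA was amplified in 2 cycles, and R 2.12.1 is the only tool in the submitters' processing notes. How probes were summarised and arrays scaled is not given in the sources used here. The members and lists were chosen with earlier results of these data known. Gene names came from the platform annotation, and a gene in the lists was read at its brightest probe set (mean of 4 arrays).

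The plain fit was two-sided and took the log2 intensity of 37695 chicken probe sets into lmFit and eBayes of limma 3.58.1 under R 4.3.3, calling at a Benjamini-Hochberg adjusted p of 0.05. The offset fit used log2(intensity + 16), probe sets above background on at least 2 arrays, and a trended, robust prior. It had been picked earlier among several settings for these data and understates changes of dim probe sets. The code was tested on simulated data, where the offset fit let through more unchanged probe sets than its threshold allows. With 2 arrays per group limma takes much of the spread from other probe sets. Named besides the members were up to 3 genes per list with the largest log2(intensity + 16) difference among those above background, any gene that passed, and the 5 genes closest to DPYS. The alternatives were an offset of 32, a background filter alone, quantile normalization, median centring, the replicate number as a block and leaving out each array. The number of arrays limits the precision, and a value below background gives no level.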

Additional observations from a re-analysis of the deposited data

Results flagged for a closer look

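The 2 brightest of the 57 reporter probe sets, which entered no comparison, were brighter in HoxA13 than in the controls. The brightest was 5.28-fold higher. The next was 109 and 76.3 in HoxA13 against 3.67 and 2.59. These control values lie below background, so it was at least 6.25-fold higher. Which of them match the H2B-Venus reporter is not given in the sources used here.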

How the results depend on the processing

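DPYS was chosen after its difference had passed a test in these same arrays, so its results here are a description and no independent support. Both HoxA13 values lay below both controls, so leaving out 1 array could not turn the direction. The replicate block and the background filter leave the estimate itself unchanged, so the alternatives are not separate checks. DPYS kept its direction in all 15 alternatives, between -2.98 and -2.19 on the plain or offset log2 scale. It passed in 5 of them (limma): in the offset fit (-2.44), with an offset of 32 (-2.19), in the offset fit with a replicate block (-2.44), and in the offset fit without control replicate 1 (-2.37) or control replicate 2 (-2.51). Leaving out 1 array gave -2.98 to -2.27. Over all chicken probe sets the plain fit passed 0 higher and 0 lower, as it did with quantile normalization, median centring, the replicate block or without any 1 array. The background filter alone passed 1 lower, the offset fit 3 higher and 10 lower, and an offset of 32 gave 2 and 9. The offset fit with the replicate block passed 53 higher and 107 lower, DPYS being the only one of the 13 probe sets of the enzymes among them. Leaving out 1 array in the offset fit gave 0 to 23 higher and 5 to 58 lower (3 and 14 without control replicate 2). The extremes at the top came without control replicate 1. Same-numbered arrays deviated together with a correlation of 0.30 over 15818 probe sets, and the spike-ins split by number, but the labels tie the numbers to no shared day, so whether they pair the pools is not known. CAD stayed between 0.45 and 0.93 and DHODH between 0.58 and 0.95 in all 15 alternatives, and neither passed in any. TYMS was below 0 in 10 and above 0 in 5 of the 15, UMPS in 11 and 4, and UPB1 in 11 and 4. For these enzymes each value above 0 came without 1 array, apart from TYMS under median centring (0.025). The cause of the gaps between arrays was not tested.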
